A study of Oryza sativa with 8 samples.

Results

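Line OE-24 and line OE-29 are independent rice transformants that overexpress OsTMF, and the comparison between them covered 4 of the 8 arrays of the series, 2 from each line. The members were taken from the labels: OE-24 gave replicate 1 and OE-29 replicate 2 of the overexpression arrays, each with 1 array before and 1 array after cold. Wild type, cultivar Zhonghua 11 (ZH11), gave the other 4 arrays, 2 before and 2 after cold, and was used to see which line departed from wild type. All plants were of the ZH11 background and were harvested as shoots and leaves at the 4-leaf stage, either before treatment or once they had spent 24 h in a chamber kept at 4 °C. The sources used here state neither the growing temperature before treatment nor the promoter of the construct nor how many plants made up a sample. Since each line holds 1 array a treatment and its line name coincides with its replicate number, line and replicate number cannot be told apart, and p-values measure the spread between these arrays.

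Transgenic rice lines made with the same construct come from separate transformation events. As a rule they differ in where the construct entered the genome, in its copy number and in its level, and plants raised from tissue culture can carry further changes of their own. Lines are therefore compared so that effects shared by both can be set apart from those of 1 line. TMF proteins are coiled-coil proteins known from the Golgi of animals and yeast. No probe set could be matched to OsTMF by name, so its own level was not analysed here.

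Values are array signals in arbitrary units, and differences are on the scale of log2(signal + 16), given as OE-24 minus OE-29 with ± as the standard error from limma; on that scale fold changes of dim genes are understated. A call is an adjusted p under 0.05 over all 34313 tested probe sets. The array medians lay between 27.2 and 28.2. Of the 8 listed leaf markers 6 were measured, and their summed signal lay between 23118 and 39898 in OE-24, 22764 and 39009 in OE-29 and 22826 and 40030 in ZH11. Meristem markers (4 of 5 measured) summed to at most 66.3 in OE-24, 64.6 in OE-29 and 78.2 in ZH11, seed storage markers (8 of 9) to at most 466 in OE-24, 527 in OE-29 and 542 in ZH11, and flower and meiosis markers (12 of 13) to at most 920.3 in OE-24, 990.3 in OE-29 and 974 in ZH11. Root markers (3 of 7) summed to between 230.2 and 305 in OE-24, 324 and 347 in OE-29 and 212 and 241 in ZH11, so that OE-29 did not overlap with the others. LSI1 made up most of each of these sums, and LSI2 was at most 12.2. IRT1 was higher in OE-29 than in OE-24 before cold (95.5 and 68.8) and lower after cold (30.8 and 33.2). None of the tested markers was called between the lines, and their part in the results was not tested. In such bulk tissue, fewer cells of a type and less RNA per cell cannot be told apart.

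The lines were called apart at a small set of probe sets, some of them with large differences. Before cold, 103 probe sets were at least 2-fold apart between OE-24 and OE-29 and 73 after cold; 35 were so at both times, and all 35 had the same direction, 16 higher and 19 lower in OE-24. Between the ZH11 replicates 35 probe sets were 2-fold apart before cold, 9 after cold and 1 at both times. In limma, with treatment as a factor, 83 of 34313 probe sets (0.242%) were called between the lines over both treatments. Of these, 24 (0.0699%) were higher and 59 (0.172%) lower in OE-24, and 2593 had an unadjusted p under 0.05. The excess of lower calls turned in some fits, with 27 higher and 16 lower without the OE-24 array before cold, 27 higher and 17 lower without the OE-29 array before cold, and 13 higher and 9 lower with a replicate block shared by ZH11 and the lines. All 83 had the same sign before and after cold, which a call on the mean of both favours, whereas over all tested probe sets 46.2% did, and the line difference before cold had a Pearson correlation of 0.13 with that after cold across the tested probe sets, which are not independent replicates. Of the called probe sets, 41 were annotated with 1 gene and 42 with none; taken by gene, 37 of 15858 genes were called (0.233%), 10 higher (0.0631%) and 27 lower (0.170%) in OE-24.

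**Figure D1:**
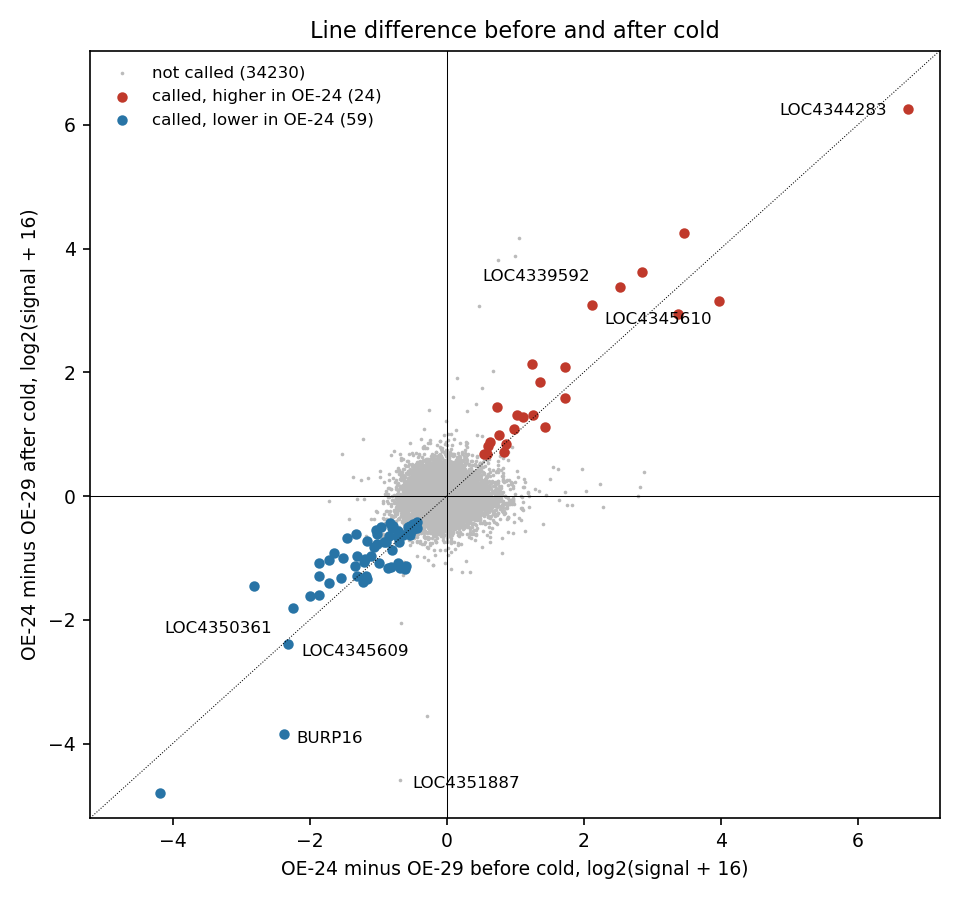
Line difference (OE-24 minus OE-29, log2(signal + 16)) before cold on the x axis and after cold on the y axis for every tested probe set; grey points were not called, red were called higher and blue lower in OE-24 over both treatments, and the dotted line marks equal differences. The 83 called probe sets lie along the dotted line, while LOC4351887 lies off it, with a difference after cold only.

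The half-width of the 95% confidence interval of a line difference had a median of 0.23 over tested probe sets. That interval is not adjusted for the number of probe sets, whereas a call is. The smallest called difference was 0.425 in size, and smaller ones were not detected with these arrays. Of the 83 called probe sets, 20 stayed called in every fit that left out 1 array, and 18 also in every other fit tried, the crossed replicate block included. Without the OE-24 array before cold the line difference rests on the arrays after cold and 43 probe sets were called, of which 25 were among the 83; without the OE-29 array before cold 44 were called, 26 of them among the 83. Leaving out the OE-24 or the OE-29 array after cold gave 74 and 75 calls, with 39 and 40 of the 83. Without either cold ZH11 array 56 were called.

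The largest difference was at LOC4344283, a gene with no name in the annotation. LOC4344283 had a signal of 9881 in OE-24, 76.4 in OE-29 and 65.5 and 74.6 in ZH11 before cold, and of 11183 in OE-24, 130.4 in OE-29 and 16.7 and 21.5 in ZH11 after cold. The signal was high on both OE-24 arrays and low on all 6 others. The line difference was 6.50 ± 0.13 (limma adjusted p = 8.1e-09), while OE-29 exceeded ZH11 by 1.08 over both treatments. LOC4339592 had a signal of 6523 in OE-24, 1120.3 in OE-29 and 798.5 and 779 in ZH11 before cold, and of 11452 in OE-24, 1085 in OE-29 and 969.6 and 899.8 in ZH11 after cold. Again only the OE-24 arrays were high, with a line difference of 2.95 ± 0.15 (limma adjusted p = 1.2e-05). Both genes stayed called in every fit that left out 1 array and in every other fit tried. These genes, and those named by a locus number in the following paragraphs, were chosen after their values were seen, since the annotation names none of the genes called higher in OE-24.

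Among the other genes higher in OE-24, LOC9270995 had higher signals after cold in all 3 genotypes. LOC9270995 had a signal of 461.5 in OE-24, 128 in OE-29 and 114 and 125 in ZH11 before cold, and of 1453.5 in OE-24, 329 in OE-29 and 265 and 266 in ZH11 after cold. OE-24 was the highest at both times and OE-29 was nearer to ZH11, with a line difference of 1.91 ± 0.11 (limma adjusted p = 2.5e-05). LOC4340717 had a signal of 199 in OE-24, 67.3 in OE-29 and 102 and 86.2 in ZH11 before cold, and of 834 in OE-24, 220.3 in OE-29 and 239 and 241 in ZH11 after cold. Here too OE-24 was the highest at each time, and the line difference was 1.61 ± 0.13 (limma adjusted p = 0.00042). LOC4337401 had a signal of 77.8 in OE-24, 12.3 in OE-29 and 7.7 and 8 in ZH11 before cold, and of 52.7 in OE-24, 7 in OE-29 and 6.3 and 6.9 in ZH11 after cold. LOC4337401 was high in OE-24 alone and passed the filter on mean signal, 17.65, through those 2 arrays, so it had to differ and its values are a description. The same holds for 8 of the 24 probe sets called higher in OE-24, and for 3 of the 59 called lower, which passed through OE-29. Such probe sets were not taken out of the counts given above of those that stayed called. LOC4337401 is among both the 20 and the 18.

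In the opposite direction, LOC4350361 was low in OE-24 alone. LOC4350361 had a signal of 30.3 in OE-24, 202 in OE-29 and 201 and 174 in ZH11 before cold, and of 134 in OE-24, 507 in OE-29 and 519 and 538 in ZH11 after cold. OE-29 lay just outside the range of the ZH11 replicates, and OE-24 was the lowest at both times. The line difference was -2.02 ± 0.12 (limma adjusted p = 4.3e-05). The largest difference in this direction was at a probe set with no annotated gene, chosen after its values were seen. This probe set had a signal of 40.2 in OE-24, 1010.4 in OE-29 and 31.9 and 36.4 in ZH11 before cold, and of 40.8 in OE-24, 1566 in OE-29 and 40.2 and 53.6 in ZH11 after cold. There OE-29 was the line that departed, with a line difference of -4.50 ± 0.16 (limma adjusted p = 1.2e-06).

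The line that lay farther from ZH11 was counted in each direction. Of the 24 probe sets called higher in OE-24, OE-24 lay farther from ZH11 than OE-29 for 22, and OE-29 lay within 0.5 (log2) of ZH11 at both times for 19. Of the 59 called lower in OE-24, OE-29 lay farther for 41, and ZH11 lay between the lines for 30. Over all tested probe sets OE-24 lay farther for 39.4% and ZH11 between the lines for 25.2%. These counts share arrays with the comparison that chose the probe sets, so they describe it and carry no test.

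**Figure D2:**
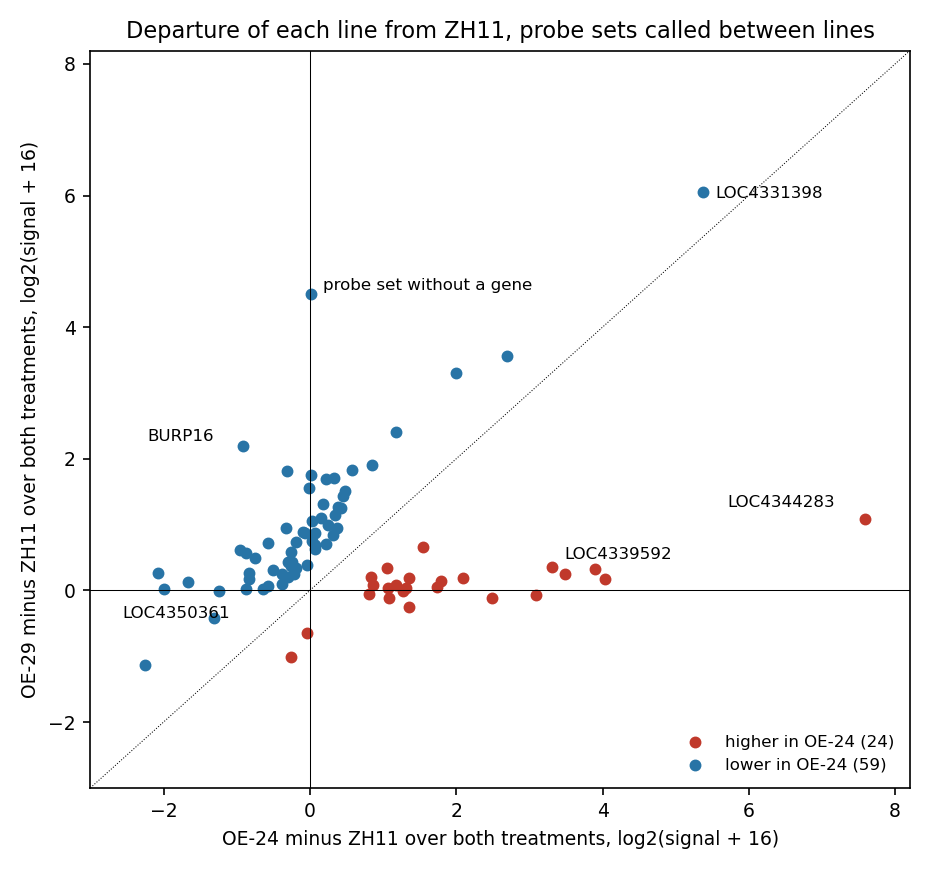
Difference from ZH11 over both treatments (log2(signal + 16)) in OE-24 on the x axis and in OE-29 on the y axis for the 83 probe sets called between the lines; red points were higher and blue lower in OE-24, and the dotted line marks equal departures. Most red points lie along the x axis, where OE-29 is near ZH11, and LOC4331398 lies high on both axes.

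**Figure D3:**
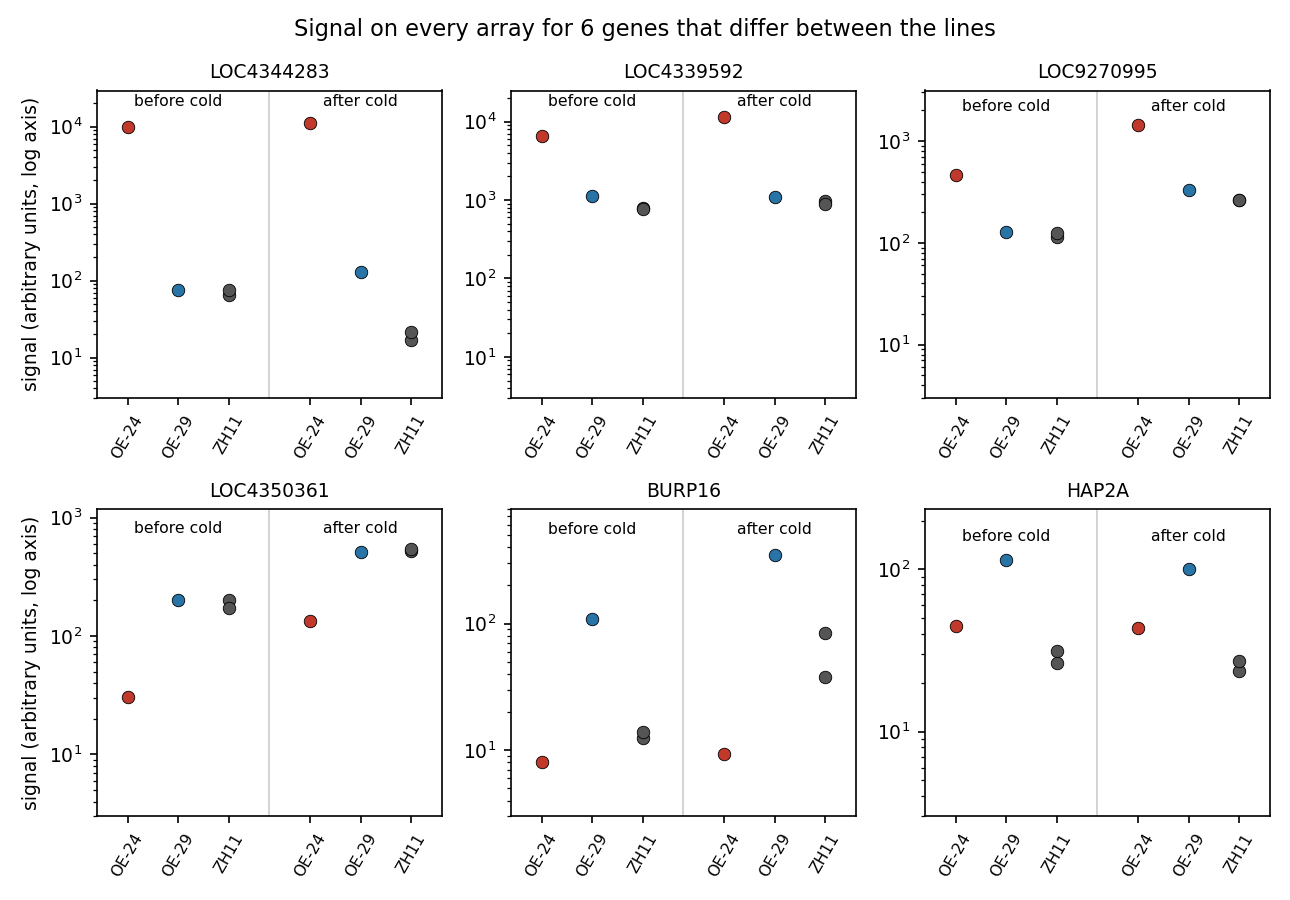
Signal (arbitrary units, log axis) on each of the 8 arrays for 6 genes, with OE-24 in red, OE-29 in blue and ZH11 in grey, before cold on the left and after cold on the right of each panel. OE-24 departs for LOC4344283, LOC4339592, LOC9270995 and LOC4350361, and OE-29 is the highest for BURP16 and HAP2A.

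Called genes that lie side by side differed in opposite directions. Of the 37 called genes, 2 pairs are immediate neighbours in the RefSeq gene table (assembly ASM3414082v1), and in each pair 1 gene was higher and the other lower in OE-24. LOC4345610 had a signal of 179.7 in OE-24, 29 in OE-29 and 33.2 and 39.5 in ZH11 before cold, and of 207 in OE-24, 10.2 in OE-29 and 11.4 and 9.4 in ZH11 after cold. LOC4345609 had a signal of 5.7 in OE-24, 91.5 in OE-29 and 63.5 and 101 in ZH11 before cold, and of 7.4 in OE-24, 106 in OE-29 and 85.3 and 71 in ZH11 after cold. OE-24 was the line that departed at both genes, with line differences of 2.61 ± 0.19 at LOC4345610 and -2.35 ± 0.17 at LOC4345609 (limma adjusted p = 0.00017 for each). The 8 nearest tested genes around the pair, 4 on each side, had line differences between -0.11 and 0.10, among them BADH2, the betaine aldehyde dehydrogenase gene of grain fragrance, at -0.07.

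The second pair differed less. LOC4326035 had a signal of 885 in OE-24, 602 in OE-29 and 1069 and 944 in ZH11 before cold, and of 576 in OE-24, 354 in OE-29 and 554 and 524 in ZH11 after cold. LOC4326034 had a signal of 728.5 in OE-24, 1042 in OE-29 and 722 and 725 in ZH11 before cold, and of 478 in OE-24, 704 in OE-29 and 302 and 306 in ZH11 after cold. At LOC4326035 OE-29 was the lowest at both times, while at LOC4326034 OE-29 was the highest and OE-24 also lay above ZH11 after cold. The line differences were 0.61 ± 0.09 at LOC4326035 and -0.52 ± 0.07 at LOC4326034 (limma adjusted p = 0.0219 for each), and neither stayed called without a cold ZH11 array or without any 1 of the 4 overexpression arrays (adjusted p up to 0.117 and 0.112). Their 8 nearest tested genes lay between -0.32 and 0.23. Around LOC4344283 the flanking genes CIPK29 and CIPK2, which encode kinases of calcium sensing, and HAK9, a potassium transporter, differed by 0.14, 0.07 and 0.03. A gene annotated only as peroxidase, 6 steps away in the gene table, was the only one of the 8 called, at -0.92 ± 0.15 (limma adjusted p = 0.0412), and was not called without any 1 of the cold ZH11 arrays or the overexpression arrays (adjusted p up to 0.178). Around LOC4339592 the 8 nearest tested genes lay between -0.33 and 0.10 and none was called.

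**Figure D4:**
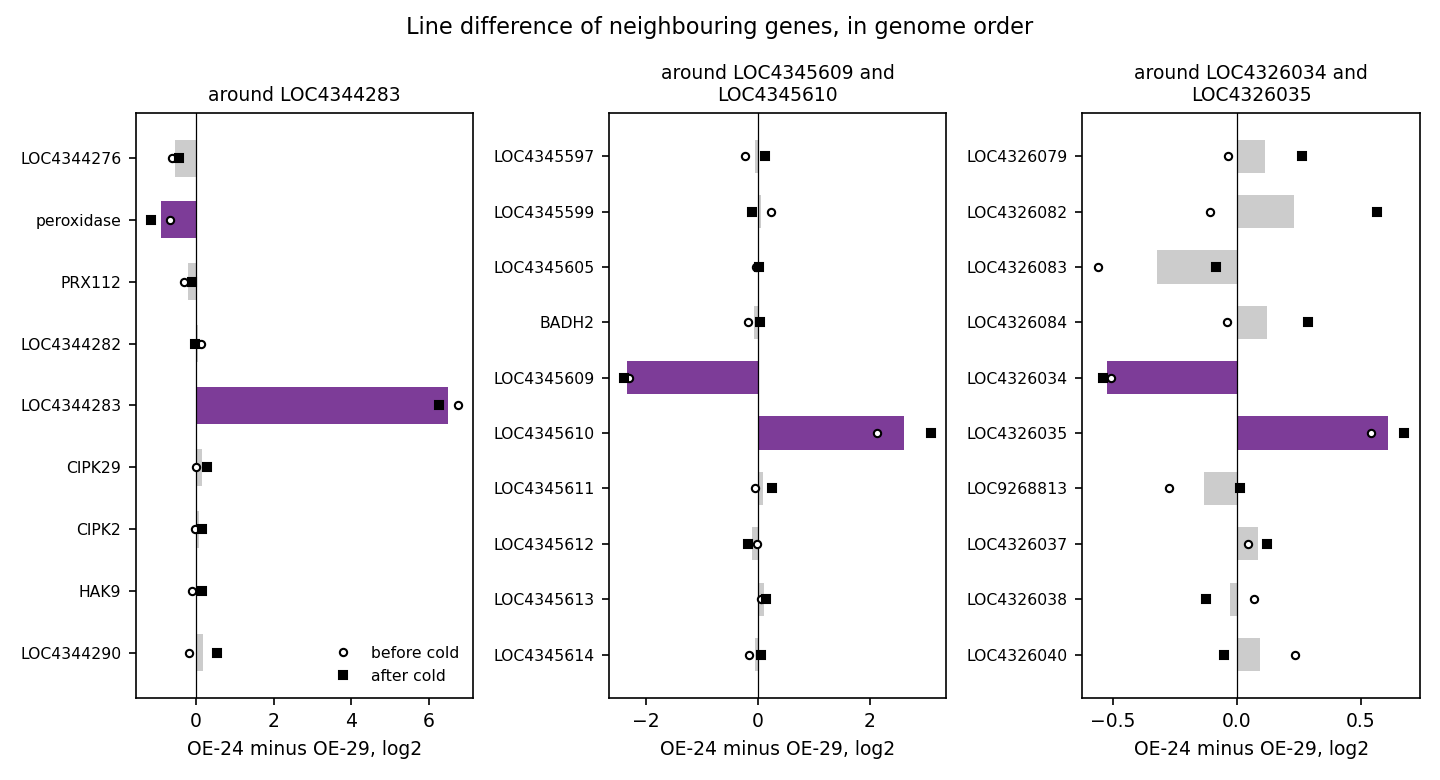
Line difference (OE-24 minus OE-29, log2) over both treatments as bars, before cold as open circles and after cold as filled squares, for the called genes and the 4 nearest tested genes on each side in genome order; purple bars were called and grey were not. The x axes differ in range. Adjacent called genes point in opposite directions, and of the genes around them only the peroxidase was called.

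Genes with an informative name that were called between the lines over both treatments were all lower in OE-24 than in OE-29, as were 27 of all 37 called genes. BURP16 encodes a BURP-domain protein, a plant family of secreted proteins with roles at the cell wall. BURP16 had a signal of 8 in OE-24, 108 in OE-29 and 12.5 and 14 in ZH11 before cold, and of 9.3 in OE-24, 349.5 in OE-29 and 84.1 and 37.9 in ZH11 after cold. OE-29 was the highest at both times and OE-24 the lowest, and the line difference was -3.11 ± 0.32 (limma adjusted p = 0.00292). Without the OE-24 or the OE-29 array after cold the adjusted p was 0.056 and 0.052. The ZH11 replicates after cold were themselves more than 2-fold apart. Of the 8 tested BURP and pectin methylesterase inhibitor genes BURP16 alone was called, where 0.233% of all genes were, and the others lay between -0.58 (BURP17) and 0.23 (BURP12).

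HAP2A encodes a subunit of the NF-Y factor that binds CCAAT boxes. HAP2A had a signal of 44.9 in OE-24, 115 in OE-29 and 31.6 and 26.4 in ZH11 before cold, and of 43.8 in OE-24, 100.5 in OE-29 and 23.8 and 27.2 in ZH11 after cold. OE-29 was the highest, OE-24 lay above the ZH11 arrays by less, and the line difference was -1.03 ± 0.11 (limma adjusted p = 0.00398); without the OE-24 or the OE-29 array before cold the adjusted p was 0.091 and 0.088. CCR1, a cinnamoyl-CoA reductase of lignin synthesis, differed by -0.67 ± 0.11 (limma adjusted p = 0.0378). Its signals were 39.7 in OE-24, 74.5 in OE-29 and 38.5 and 45.9 in ZH11 before cold. After cold they were 24.8 in OE-24, 48 in OE-29 and 37.9 and 39.9 in ZH11. OE-29 lay above ZH11 at both times, while OE-24 lay within ZH11 before cold and below it after cold. CCR1 was not called without any 1 of the cold ZH11 or the overexpression arrays, where its adjusted p reached 0.263.

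SPX5 and MGD2 were lower in OE-24 than in OE-29. SPX proteins bind inositol phosphates and hold back the PHR factors that drive phosphate starvation genes, and several SPX genes are themselves induced by phosphate shortage. SPX5 had a signal of 19.9 in OE-24, 64.2 in OE-29 and 14.3 and 27 in ZH11 before cold, and of 85 in OE-24, 238 in OE-29 and 308 and 233 in ZH11 after cold. OE-24 was the lower line at both times, and the line difference was -1.25 ± 0.18 (limma adjusted p = 0.0219), with -1.01 ± 0.13 at its other probe set (adjusted p = 0.0109). MGD2 encodes a galactolipid synthase whose Arabidopsis counterpart acts when phospholipids are replaced under phosphate shortage. MGD2 had a signal of 15.2 in OE-24, 61.5 in OE-29 and 11.1 and 18 in ZH11 before cold, and of 22.7 in OE-24, 78.9 in OE-29 and 89.3 and 58.4 in ZH11 after cold. OE-24 again was lower than OE-29, with a line difference of -1.30 ± 0.16 (limma adjusted p = 0.0109). Against ZH11 before cold, SPX5 and MGD2 stood at -0.01 and 0.04 in OE-24 and at 1.15 and 1.35 in OE-29. After cold they stood at -1.49 and -1.19 in OE-24 and at -0.16 and 0.10 in OE-29. The line farther from ZH11 was thus OE-29 before cold and OE-24 after cold. Neither SPX5 nor MGD2 stayed called without any 1 of the overexpression arrays, with adjusted p up to 0.207 and 0.194.

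All 5 measured SPX genes read lower in OE-24 than in OE-29 at both times, with a median difference of -0.66 before and -0.41 after cold, against -0.09 and 0.02 over all genes; the family was singled out after its values were seen, and only SPX5 was called over both treatments. SPX1 had a signal of 802 in OE-24, 1689 in OE-29 and 932 and 999 in ZH11 before cold, and of 3846 in OE-24, 4952.5 in OE-29 and 5632 and 5693 in ZH11 after cold. Before cold OE-24 lay just below both ZH11 arrays and OE-29 above them, whereas after cold both lines lay below ZH11 and OE-24 was the lowest. The difference before cold was -1.06 ± 0.08 (limma adjusted p = 0.00404), and over both treatments -0.71 ± 0.13 (adjusted p = 0.0748). SPX2, SPX3 and SPX4 differed by -0.53, -0.42 and -0.14 over both treatments, with adjusted p of 0.0729, 0.493 and 0.705. Over the 28 tested genes of the nitrogen and phosphate list 1 was called, lower in OE-24 (0.233% of all genes were called, 0.170% lower), and the median difference was -0.07, against -0.03 over all genes. PHR1, PHR2 and PHR3, the factors that SPX proteins hold back, were chosen after their values were seen and differed by 0.08, -0.02 and 0.09, and, likewise chosen after its value was seen, the phosphate transporter Pht1;4 by -0.44 without being called (adjusted p = 0.443).

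**Figure D5:**
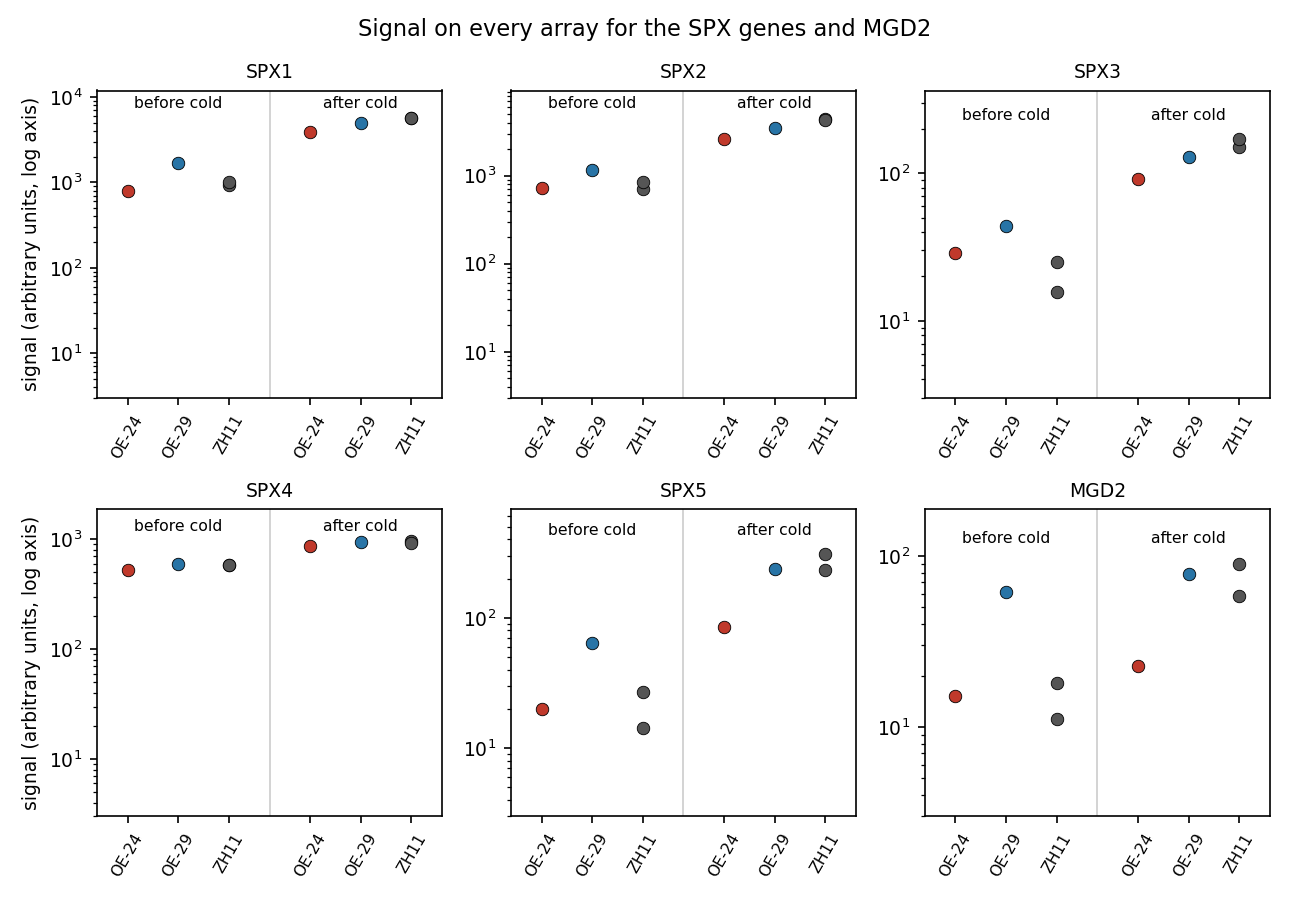
Signal (arbitrary units, log axis) on each of the 8 arrays for the 5 measured SPX genes and MGD2, with OE-24 in red, OE-29 in blue and ZH11 in grey, before cold on the left and after cold on the right of each panel. OE-24 lies below OE-29 in every panel at both times.

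Before cold alone, with each line's lone array assumed to vary like the ZH11 replicates, 77 of 34313 probe sets were called (0.224%), 32 higher (0.0933%) and 45 lower (0.131%) in OE-24, and 5494 had an unadjusted p under 0.05. With quantile normalization 43 were higher and 30 lower. MT-I-1b, a metallothionein, had a signal of 709 in OE-24, 1856 in OE-29 and 2742.5 and 2975 in ZH11 before cold, and of 1034 in OE-24, 829 in OE-29 and 4070 and 3304 in ZH11 after cold. OE-24 was lower than OE-29 before cold, with a difference of -1.37 ± 0.14 (limma adjusted p = 0.0126), and both lines were below ZH11 at both times. SGR, the STAY-GREEN gene of chlorophyll breakdown, had a signal of 686 in OE-24, 1222 in OE-29 and 1354 and 1282 in ZH11 before cold, where the difference was -0.82 ± 0.08 (limma adjusted p = 0.0126). IAA31, an auxin response repressor, was higher in OE-24 at that time, with 337 in OE-24, 195 in OE-29 and 442 and 427 in ZH11, by 0.74 ± 0.09 (limma adjusted p = 0.0349). After cold the line differences of SGR and IAA31 had the other sign, at 0.11 and -0.27, and neither was called then or over both treatments. Without either cold ZH11 array 10 probe sets were called, and SPX1, MT-I-1b, SGR and IAA31 were not, with adjusted p up to 0.12, 0.072, 0.183 and 0.236; IAA31 was also lost without ZH11 replicate 2 before cold.

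After cold, 45 probe sets were called (0.131%), 27 higher (0.0787%) and 18 lower (0.0525%) in OE-24, and 2807 had an unadjusted p under 0.05; without either cold ZH11 array 20 were called. SWEET15, a sugar efflux transporter of dim signal, was called after cold, at 52.7 in OE-24, 16.2 in OE-29 and 36.8 and 31.8 in ZH11, with a difference of 1.09 ± 0.14 (limma adjusted p = 0.038). After cold the lines lay on either side of ZH11. Before cold SWEET15 gave 10.6 in OE-24, 17.3 in OE-29 and 12.4 and 15.8 in ZH11, a difference of -0.32 that was not called. Its call was lost without any 1 of the 4 ZH11 arrays (adjusted p up to 0.202). BURP16, described above, was the other list gene called after cold, with a difference of -3.85 ± 0.34 (limma adjusted p = 0.00547). The 6 fits that left out 1 array kept both arrays compared, so this difference could not change, and it stayed called in each.

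The cold change itself, taken with its sign, differed between the lines at 9 probe sets (0.0262%), and 4537 had an unadjusted p under 0.05. The signed change was higher in OE-24 at 6 (0.0175%) and lower in OE-24 at 3 (0.00874%). LOC4351887 had a signal of 5.7 in OE-24, 18.7 in OE-29 and 8.3 and 6 in ZH11 before cold, and of 11.9 in OE-24, 655 in OE-29 and 6.7 and 8.4 in ZH11 after cold. One array, OE-29 after cold, was high, and the cold change in OE-24 minus that in OE-29 was -3.91 ± 0.18, with -3.26 at a second probe set of the gene, which was not called without either cold ZH11 array (adjusted p up to 0.254). LOC4336765 had a signal of 56.1 in OE-24, 151 in OE-29 and 51.9 and 47.9 in ZH11 before cold, and of 117 in OE-24, 54.1 in OE-29 and 60.1 and 55.2 in ZH11 after cold. Its interaction was 2.14 ± 0.20 (limma adjusted p = 0.0241), and that of LOC4326954 was -1.48 ± 0.15 (adjusted p = 0.0317). Neither was called without any 1 of the 4 ZH11 arrays, and without either cold one 4 probe sets were called. The other 5 probe sets had no annotated gene and were high on the OE-24 array after cold. Of the 9, 5 passed the filter through their 1 highest array, the first of LOC4351887 among them, so these had to differ and their values are a description. Across the tested probe sets the cold changes of the lines had a Pearson correlation of 0.94, and their median absolute size was 0.33 in OE-24, 0.36 in OE-29 and 0.37 in ZH11.

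The DREB1 genes were not called between the lines. DREB1A, DREB1B and DREB1G encode transcription factors that drive the early cold response. DREB1A had a signal of 42.8 in OE-24, 55.3 in OE-29 and 53.6 and 48.7 in ZH11 before cold, and of 1050.4 in OE-24, 872 in OE-29 and 126 and 155 in ZH11 after cold. After cold both lines exceeded both ZH11 arrays. The line difference was -0.01 ± 0.15, with a 95% confidence interval from -0.33 to 0.32. DREB1B had a signal of 89 in OE-24, 129 in OE-29 and 152 and 170.5 in ZH11 before cold, and of 4346 in OE-24, 4567 in OE-29 and 988 and 1119 in ZH11 after cold. The lines differed by -0.27 ± 0.11 (95% interval from -0.51 to -0.02, limma adjusted p = 0.63). DREB1G gave 52.1 in OE-24, 74.2 in OE-29 and 71.5 and 34.6 in ZH11 before cold. After cold it gave 1163 in OE-24, 716 in OE-29 and 139 and 156.5 in ZH11. Its line difference was -0.41 before and 0.69 after cold, neither called. Over both treatments these averaged to 0.14 ± 0.27 (95% interval from -0.46 to 0.74). None of the 5 DREB1 genes was called, against 0.233% of all genes.

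Other genes named for their distance from ZH11 were not called between the lines over both treatments. Unless a time is named, their differences from ZH11 are means over both treatments. DXPS, a deoxyxylulose phosphate synthase of plastid isoprenoid synthesis, differed between the lines by 0.05 ± 0.15 (95% interval from -0.29 to 0.38). It exceeded ZH11 by 1.49 in OE-24 and 1.44 in OE-29 (limma adjusted p = 0.00017 and 0.00019). Before cold it stood at 0.65 in OE-24 and 0.52 in OE-29 over ZH11, neither called, and after cold at 2.33 and 2.37. The chitinase Cht2 differed by -0.23 ± 0.12 (from -0.50 to 0.05), with 1.23 in OE-24 and 1.46 in OE-29 over ZH11. For Cht2 these were 1.52 and 1.64 before cold and 0.94 and 1.27 after cold. The jasmonate repressor JAZ13 differed by -0.27 ± 0.20 (from -0.70 to 0.17), with 1.17 in OE-24 and 1.44 in OE-29 over ZH11. For JAZ13 these were -0.10 and 0.65 before cold and 2.45 and 2.23 after cold. Below ZH11, MS differed between the lines by -0.33 ± 0.23 (from -0.85 to 0.18), with -1.87 in OE-24 and -1.54 in OE-29 against ZH11, and before cold alone by -0.98 ± 0.15 (limma adjusted p = 0.0677). MT-I-1b stood at -1.90 in OE-24 and -1.37 in OE-29 against ZH11 and differed between the lines by -0.53 ± 0.28 (from -1.15 to 0.10), and it was called before cold, as given above. The germin-like genes GLP2 and GER6 differed between the lines by 0.25 ± 0.11 and -0.02 ± 0.14. Against ZH11, GLP2 stood at -0.53 in OE-24 and -0.68 in OE-29 before cold, and at -1.44 and -1.77 after cold. GER6 stood at -0.23 in OE-24 and 0.01 in OE-29 before cold, and at -1.62 and -1.82 after cold. ACO1, an ethylene-forming oxidase, differed from ZH11 by -0.55 in OE-24 and -1.30 in OE-29, with a line difference of 0.74 ± 0.15 that was not called (adjusted p = 0.14). LAC24, EXPA7 and PRX74, named by the same rule, differed between the lines by -0.68, 0.60 and 0.43, with adjusted p of 0.735, 0.736 and 0.638.

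A gene at 3.6 to 7.4 in ZH11 was high in both lines and higher in OE-29. LOC4331398 was measured by 2 probe sets. The first had a signal of 830.3 in OE-24, 1376.5 in OE-29 and 4.7 and 3.6 in ZH11 before cold, and of 935 in OE-24, 1478 in OE-29 and 7.4 and 7 in ZH11 after cold. The brighter had a signal of 1059 in OE-24, 1719 in OE-29 and 4.1 and 7.3 in ZH11 before cold, and of 1181.5 in OE-24, 1838 in OE-29 and 5.2 and 6.2 in ZH11 after cold. Both lines were far above ZH11, and OE-24 was below OE-29 at both times. The line difference was -0.68 ± 0.10 at the first (limma adjusted p = 0.0295) and -0.66 ± 0.11 at the brighter (adjusted p = 0.0523). The first was not called without any 1 of the cold ZH11 or the overexpression arrays (adjusted p up to 0.216). LOC4340325 had a signal of 598 in OE-24, 559 in OE-29 and 9.2 and 6.8 in ZH11 before cold, and of 208 in OE-24, 212 in OE-29 and 9 and 16.4 in ZH11 after cold. It too was high in both lines, which differed by 0.04 ± 0.14 (95% interval from -0.27 to 0.35). Both genes have no name in the annotation.

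Across the 36 gene lists 899 genes were tested, and 3 were called between the lines over both treatments (0.334%): BURP16, SPX5 and CCR1. This share was near the 0.233% of all genes. Before cold 5 were called (0.556%, against 0.233% of all genes) and after cold 2 (0.222%, against 0.114%).

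Against ZH11, over both treatments, 1790 probe sets were called in OE-24 (5.22%) and 3227 in OE-29 (9.40%). Before cold the counts were 344 in OE-24 (1.0%) and 1256 in OE-29 (3.66%), and after cold 4593 in OE-24 (13.4%) and 3984 in OE-29 (11.6%). Both lines were set against the same ZH11 arrays, and whether the counts differ was not tested. The counts over both treatments dropped to 400 in OE-24 without its own cold array and to 683 in OE-29 without its own array before cold. Without the OE-29 array before cold OE-24 had 2671 calls, more than OE-29. The median absolute difference before cold was 0.106 and 0.096 between OE-24 and each ZH11 array, 0.127 and 0.133 between OE-29 and each, 0.142 between the lines and 0.0888 between the ZH11 replicates. After cold it was 0.172 and 0.166 for OE-24, 0.164 and 0.158 for OE-29, 0.102 between the lines and 0.0871 between the ZH11 replicates. The single-time counts also dropped without a cold ZH11 array: without ZH11 replicate 1 or 2 after cold they were 613 and 877 in OE-24 and 503 and 709 in OE-29 after cold, and 102 in OE-24 and 253 in OE-29 before cold in each case. With quantile normalization 51.3% of the calls in OE-29 before cold were higher, against 62.5%, and 52.2% against 63.4% of those in OE-24 after cold.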

How the data were processed

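Total RNA of shoots and leaves was hybridised to 8 one-colour Affymetrix rice arrays, per the labels' protocols. The values the authors deposited are intensity signals, 1 per probe set, on a linear scale; how the authors summarised and normalized them is not given in the sources used here. No array or column was left out. The table held 57194 probe sets. GEO's annotation gave 22436 of them a single gene, 95 several genes and 34663 no gene. Names came from the probe annotation and the RefSeq gene table, and probe sets of related genes may cross-hybridise. A gene was represented by its brightest tested probe set.

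Probe sets with a mean signal above the 40th percentile were tested on log2(signal + 16) with limma 3.58.1 (lmFit, eBayes with a trend) in R 4.3.3, two-sided, with Benjamini-Hochberg adjustment over probe sets. Results over both treatments came from a fit with 4 genotype-by-treatment means and a term for line (3 residual degrees of freedom); single-time results and the interaction came from 6 group means (2 residual degrees of freedom, both from ZH11). The number of arrays limits the precision. Alternatives varied the pseudocount, filter, scaling, trend, replicate block and arrays.

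On simulated data the fits recovered the sizes of the differences put in. This was fixed in advance and is no test, since the data were made from a model that the fits contain. The share of false calls was under the nominal level when spreads were drawn from limma's own fitted prior, but above it in both comparisons simulated when spreads came from the arrays' residuals, with and without a trend. The simulation from the prior was added after the other 2 had been seen, all 3 were kept, and calls near the threshold are correspondingly less certain.

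Genes with an informative name were named by rule: over both treatments the 12 largest past the threshold in each direction, or all where fewer than 10 passed; the 5 largest in each direction for the interaction and for each line against ZH11; the 3 largest before and after cold; and the 2 largest past the threshold in each list, or else its largest. Apart from the list rule, and from a direction where all were taken, a mean signal above the median of tested probe sets was required. Other genes were chosen after their values were seen. Members and lists were chosen with earlier results of these data known. OsTMF could not be matched, and the ZH11 replicate numbers entered the fit as no block; the difference between them had a correlation of -0.02 between treatments over probe sets.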

Additional observations from a re-analysis of the deposited data

Results flagged for a closer look

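The cold change differed between the lines, by the test of the difference itself, at 9 probe sets. Each value is the cold change in OE-24 minus that in OE-29 on the log2 scale. It was -3.91 and -3.26 at the probe sets of LOC4351887, -1.48 at LOC4326954 and 2.14 at LOC4336765. At probe sets with no annotated gene it was 3.07 and 1.75 for one pair, and 3.12, 2.89 and 2.61 for a group of 3. Each line had 1 array at each time, so these values rest on single arrays. Of the 9, 5 passed the filter through their 1 highest array, that of LOC4351887 at -3.91 among them. These had to differ, and their values are a description.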

How the results depend on the processing

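For the line difference over both treatments, 83 probe sets were called. The counts were 54 without a trend in eBayes and 244 with the overexpression arrays only, where 1 residual degree of freedom remains. With the replicate block shared by ZH11 and OE, which sets the line difference against that between the ZH11 numbers, 22 were called. The sources used here do not state whether the ZH11 numbers mark a batch shared with the lines. The line difference had a correlation of -0.12 before and -0.04 after cold with the difference between the ZH11 numbers over probe sets. Each correlation rests on a single pair of ZH11 arrays, so it cannot settle whether a batch was shared. With the numbers crossed, chosen after seeing the data, 25 were called. The replicate block within ZH11 gave 68.

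Before cold 36 were called without a trend, and at a pseudocount of 1 the interaction had 4 calls. Against ZH11, 5098 were called in OE-29 over both treatments with 6 group means, and 776 before cold without a trend. Before cold, quantile normalization gave 58.9% of line calls higher in OE-24, against 41.6%.

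Leaving out each array in turn, where the comparison could still be made, the counts ran from 43 to 106 for the line difference over both treatments, from 400 to 2701 for OE-24 against ZH11 over both treatments, from 683 to 5082 for OE-29 against ZH11 over both treatments, from 10 to 110 for the line difference before cold. Likewise they ran from 20 to 44 for the line difference after cold, from 4 to 10 for the interaction, from 102 to 342 for OE-24 against ZH11 before cold, and from 253 to 1264 for OE-29 against ZH11 before cold, from 613 to 4602 for OE-24 against ZH11 after cold, from 503 to 4007 for OE-29 against ZH11 after cold.

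Of the probe sets called in the line comparisons, none changed sign under any alternative run. For the fits that left out 1 array this was fixed in advance and is no test. They left each single-time difference and each interaction unchanged, as for SPX1 before cold at -1.06. Over both treatments, leaving out an overexpression array left the difference at 1 time, and all 83 had the same sign at both times. The sign was also fixed with no filter, without a trend, with the overexpression arrays only, with group means and with a block within ZH11. These fits left the line difference itself unchanged. Nor could another pseudocount turn a single-time difference, or a mean of differences that shared a sign. Only quantile normalization, the shared blocks and, for the interaction, the pseudocount could have changed a sign. Signs were not checked for the calls against ZH11. The cause of the shifts in the counts was not tested. False calls on simulated data exceeded the nominal level where spreads came from the arrays' residuals. Dim signals carry no detection call here, which limits what low values show.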
